A study of Mus musculus with 16 samples.

Results

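The genes described here encode the nuclear subunits of the mitochondrial respiratory chain and ATP synthase in mouse macrophages, with the assembly factors that share their symbol stems. They were chosen by symbol and biotype alone: every protein-coding gene whose symbol begins with Nduf, Sdha, Sdhb, Sdhc, Sdhd, Uqcr, Cox4i, Cox5, Cox6, Cox7, Cox8 or Atp5. That rule took 102 of the 46320 genes in the deposited table. They comprise 41 complex I genes, 4 of complex II, 8 of complex III, 20 of complex IV and 17 of complex V, plus 8 complex I and 4 complex II assembly factors. Ndufa4, a cytochrome c oxidase subunit despite its name, and its relative Ndufa4l2 were counted with complex IV. The 13 genes of the mitochondrial genome were not analysed here, so each complex other than complex II is described without its mitochondrially encoded subunits.

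Bone marrow cells of C57BL6/J mice were cultured over 7 days, with L929 cell supernatant to provide M-CSF, and starved for 4 hours in 0.5% serum before a 4-hour treatment. The 4 groups of 4 libraries received thrombin-activated platelets, resting platelets, thrombin alone or vehicle, which was PBS. Platelets came from the blood of C57BL6/J mice and the groups differed only in what was added. The treatment protocol gives thrombin at 0.01 U/mL for both thrombin groups, whereas the labels of the thrombin-alone libraries give 0.1 U/mL. The design asks what macrophages do in the presence of platelets and whether platelet activation changes that response. The labels do not say whether replicates came from separate mice or cultures, so the p-values measure only the spread between these libraries, part of which may be technical. Nor do they say whether platelets were removed before RNA extraction.

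The respiratory chain passes electrons from NADH and succinate to oxygen and pumps protons, and ATP synthase uses the resulting gradient to make ATP. Complex I oxidises NADH, complex II oxidises succinate within the citric acid cycle, complex III passes electrons from ubiquinol to cytochrome c, and complex IV reduces oxygen. Each complex has a few large catalytic subunits and, apart from complex II, many small accessory subunits that stabilise it. In macrophages, inflammatory activation is known for shifting metabolism towards glycolysis, and succinate oxidation at complex II bears on inflammatory gene expression.

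Libraries held 22556082 to 30603736 counts. The 10 macrophage markers summed to similar shares of counts in all groups, and none was at 0. Sums were 1.77 to 2.21% with activated platelets, 1.76 to 2.17% with resting platelets, 1.76 to 2.16% with thrombin and 1.78 to 2.16% with vehicle. Lyz2 was the highest of the 10, at 12690, 12670, 12680 and 12840 CPM in that order, and weighs heavily in the sums. With activated platelets 3 of the 10 were higher and 1 lower than with vehicle (adjusted p below 0.05), against 12.2% and 13.6% of all tested genes. The marker counts that follow are of the same comparison and stand against the same shares. The 20 platelet and megakaryocyte genes summed to 0.0522 to 0.0600% of counts with activated platelets, 0.0348 to 0.0384% with resting platelets, 0.0337 to 0.0346% with thrombin and 0.0323 to 0.0365% with vehicle. Pf4, a platelet chemokine gene, was the highest of them at 248.5, 207.1, 200.2 and 198.6 CPM in that order, and the defining gene Gp9 was at 0 in every thrombin and vehicle library. Of 18 platelet genes tested, 15 were higher in activated platelet than in vehicle libraries and 0 were lower. Stromal markers were present in every group, from 0.195 to 0.502% of counts, with 0 of 5 tested genes changed. Of the 7 erythroid markers 2 were tested, and these were higher. With 5 of the 7 at 0 in vehicle and 6 at 0 in thrombin libraries, such genes could pass the filter only through the platelet groups. The count of 2 is therefore no separate result. Of the lymphocyte markers 1 of 2 tested was lower, and of 6 neutrophil and 1 dendritic cell markers tested 0 changed. Hba-a1 averaged 6.05, 1.14, 0.0 and 0.00892 CPM and Ighm 4.93, 15.2, 16.8 and 20.6 CPM with activated platelets, resting platelets, thrombin and vehicle. The 4 libraries of replicate number 1 stood apart from the other 12, with Ddx3y at 85.0 to 93.1 CPM against at most 0.270 CPM and Xist at most at 1.06 CPM against 1055 to 1291 CPM, the pattern of male cells in replicate 1 and of female cells in the others. Results are therefore also given without them. Libraries with the same replicate number deviated together from their group means, so values from a fit with the replicate number as a block (the blocked fit) are given where they move a count.

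Of the 102 members, 96 passed the filter on low counts that edgeR's filterByExpr applies, among 15618 genes tested. The 6 that did not were Cox4i2, Cox7b2, Cox8b, Cox8c, Ndufa4l2 and Ndufs6b. Cox7b2, Cox8b and Cox8c had 0 counts in all 16 libraries, where 3 counts would be 0.133 CPM in the smallest library and 0.0980 CPM in the largest. Levels are CPM, counts scaled to a common total, on library sizes scaled by TMM, and levels of different genes are compared per kilobase of exon. Per kilobase, Cox4i1 was highest in vehicle libraries at 320 CPM, followed by Atp5b at 271, Cox8a at 205, Cox6a1 at 193 and Atp5a1 at 187. The median member stood at 49.2 CPM per kilobase. Complex IV had the highest median per kilobase, 123 CPM, and complex I assembly factors the lowest, 4.18 CPM.

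The isoforms of complex IV followed a plain pattern in these cells. Cox4i1, the ubiquitous isoform of subunit 4, averaged 249.3 ± 6.504 CPM with activated platelets, 236 ± 7.00 CPM with resting platelets, 240 ± 11.4 CPM with thrombin and 245 ± 4.66 CPM with vehicle (SD, n = 4 each). Its hypoxia- and lung-associated counterpart Cox4i2 had 8, 19, 10 and 11 counts summed over the libraries of these groups, in the same order. Ndufa4 averaged 65.9 ± 2.31, 59.8 ± 4.23, 61.4 ± 2.47 and 61.3 ± 1.86 CPM in that order, whereas Ndufa4l2, a hypoxia-induced gene, had 20, 8, 13 and 13 counts. Cox6a1 stood at 193 CPM per kilobase in vehicle libraries and its muscle isoform Cox6a2 at 11.3 CPM per kilobase. Cox7a2 stood at 77.6 and its muscle isoform Cox7a1 at 1.81 CPM per kilobase. Cox7a2l was at 147 CPM per kilobase and was called in none of the 6 comparisons. The blocked fit, described above, called it higher with activated than with resting platelets (adjusted p = 0.0281).

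Promoters were read for 82 of the 102 members from RefSeq (GRCm38.p6), over the 250 bases before and 50 bases after the annotated start, to see what the genes share besides their symbols. Sites on either strand were counted for motifs of factors long associated with respiratory chain genes. The NRF1 motif, GCGCA and GCGC separated by any 1 base, occurred in 21 of 82 members (25.6%), against 5.19% of all 27025 genes with a promoter sequence. Those genes were taken whether expressed here or not, and a match at any listed start counted. CCGGAAG, a core bound by ETS factors such as GABPA, occurred in 22 members (26.8%), against 9.93% of all. AAGATGGCG, the YY1 motif, occurred in 8 members (9.76%), against 1.64%, and AAGGTCA, a motif of the ERR receptors, in 8 members (9.76%), against 5.38%. Overlapping matches were kept, and the ETS core and the YY1 motif can share letters. A match is a string of letters and does not show that a factor binds. The 4 stretches that follow are the 120 bases before the start on the gene's strand, with motif matches in capitals. Uqcrh and Cox6b1, higher with activated platelets than with vehicle, hold the ETS core; Cox6a1, lower with resting platelets, holds both; Sdha, called in none of the 6 comparisons, holds only the NRF1 motif, in 3 copies.
Uqcrh, chr4:116075071-116075190, minus strand: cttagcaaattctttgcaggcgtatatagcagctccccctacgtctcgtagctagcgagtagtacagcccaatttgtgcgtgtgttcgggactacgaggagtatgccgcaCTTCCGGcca
Cox6b1, chr7:30626115-30626234, minus strand: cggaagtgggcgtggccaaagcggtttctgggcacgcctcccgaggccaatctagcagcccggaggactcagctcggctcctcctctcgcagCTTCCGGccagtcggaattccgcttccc
Cox6a1, chr5:115348959-115349078, minus strand: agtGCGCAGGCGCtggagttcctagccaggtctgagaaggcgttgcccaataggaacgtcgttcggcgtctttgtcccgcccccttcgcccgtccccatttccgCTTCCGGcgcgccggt
Sdha, chr13:74350241-74350360, minus strand: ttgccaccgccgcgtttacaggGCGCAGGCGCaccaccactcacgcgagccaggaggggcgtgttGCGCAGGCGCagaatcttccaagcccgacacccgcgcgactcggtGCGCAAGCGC

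Summed over all members, expression differed little between groups. The members took 6310, 6117, 6032 and 5990 CPM in the activated platelet libraries, 5811, 5849, 5926 and 5815 CPM in resting platelet libraries, 5684, 5969, 5928 and 5949 CPM in thrombin libraries, and 6008, 5974, 5864 and 5923 CPM in vehicle libraries. The activated platelet mean was 1.03 times the vehicle mean. The ranges of these groups overlapped, while the activated platelet library was above the vehicle library of the same replicate number in 4 of 4 pairs. So it was for the sums over complexes I and III. For complex I this rested on 1563 against 1561 CPM in replicate 4. Scaled by library totals without TMM, complex I had 1598 against 1604 CPM in replicate 4, which left 3 of 4 pairs. No test was run on sums. Complex IV summed to 1257, 1261, 1207 and 1191 CPM with activated platelets and to 1180, 1175, 1142 and 1156 CPM with vehicle, a ratio of means of 1.06 without overlap. Complex II assembly factors summed to 59.9, 59.7, 59.1 and 60.3 CPM with activated platelets, above each of the other 12 libraries, which lay between 49.8 and 58.1 CPM. Complex V summed to 2040 ± 57.2 CPM with activated platelets and 2017 ± 25.01 CPM with vehicle, and complex II to 532 ± 8.13 and 524 ± 9.88 CPM (SD, n = 4 each), so these complexes differed by less than the spread between replicates. The plot of summed CPM by complex shows each library.

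**Figure D1:**
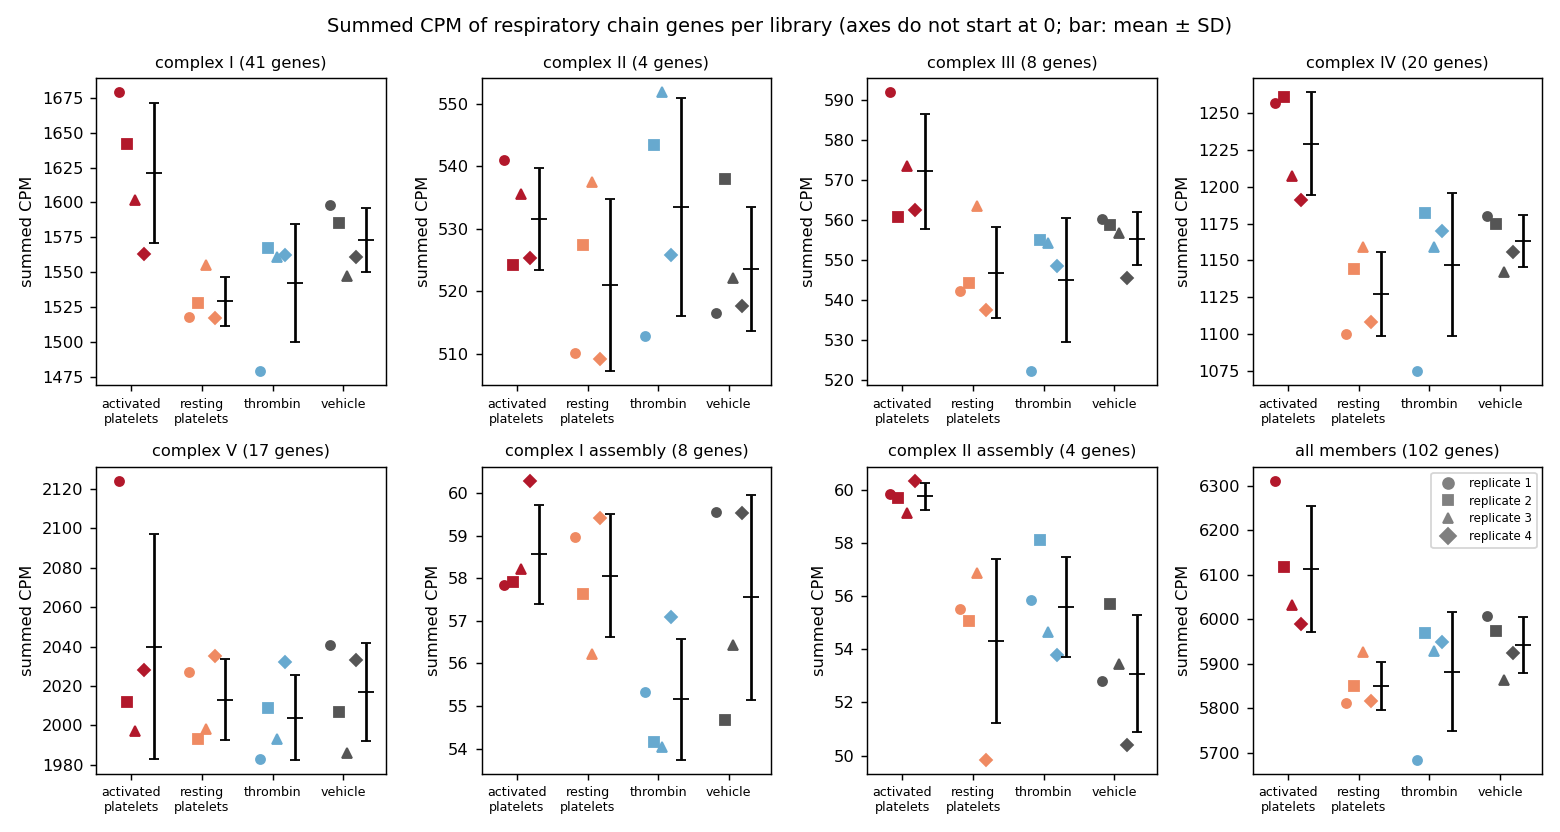
Summed CPM of the members of each complex, of the assembly factors and of all members (y axes, not starting at 0) in each library of the 4 groups (x axes). Marker shapes give the replicate number, and the bar beside each group is the mean ± SD (n = 4). Complex IV and complex II assembly factors with activated platelets lie above every vehicle library, complex V does not, and replicate 1 has the highest activated platelet and the lowest thrombin value of the sum over all members.

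Activated platelets raised 18 members and lowered 2 of the 96 tested, relative to vehicle (edgeR's quasi-likelihood test, adjusted p below 0.05). Most changes were small: apart from Cox6b2, the rises ran from 1.08 to 1.26-fold. Those 18 are 18.8% of the tested members, against 12.2% of all tested genes called higher, and the 2 are 2.08%, against 13.6% of all called lower. The median log2 fold change was 0.08 over the members, against -0.004 over all genes. Without replicate 1, 10 members were higher and 1 lower, against 8.13% and 8.08% of all genes. All 11 of these calls were among the 20 made with all libraries. Dropping all libraries of replicate number 3 left 9 higher and 1 lower, against 8.81% and 10.3% of all genes, and dropping number 4 left 10 and 1, against 8.68% and 9.71%. The blocked fit gave 26 higher and 2 lower, with 20% and 22.5% of all genes called. Of the 20 calls, 14 held when any 1 library was left out; Ndufb2, Ndufb6, Ndufb9, Uqcr10, Sdhaf1 and Atp5h did not.

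Complex I had 7 higher and 1 lower among its 40 tested genes, against 12.2% and 13.6% of all genes. Its median log2 fold change was 0.07. The risers were small accessory subunits. Ndufb1 had 48.4, 48.3, 42.1 and 41.5 CPM with activated platelets, against 40.2, 31.7, 37.8 and 33.9 CPM with vehicle. Every activated platelet library was above every vehicle library, and the log2 fold change was 0.33 ± 0.07 (SE, adjusted p = 0.00367). The blocked fit also called Ndufb1 higher with resting platelets than with vehicle (log2 fold change 0.20 ± 0.07, adjusted p = 0.0462). Neither fit called it for activated platelets against resting platelets or against thrombin. Ndufb1 lies on chromosome 12 at 101934355 to 101941997 (GRCm39).
Ndufa1, an accessory subunit needed to build the membrane arm, had 36.8, 35.8, 34.6 and 30.5 CPM with activated platelets and 30.8, 29.7, 30.1 and 28.0 CPM with vehicle. The ranges overlapped by the lowest activated platelet library, though the value was higher in each of the 4 replicate numbers (log2 fold change 0.22 ± 0.05, adjusted p = 0.00825). Ndufa3 had 33.2, 37.3, 34.5 and 33.9 CPM with activated platelets, against 29.5, 30.9, 29.3 and 30.4 CPM with vehicle, without overlap (0.21 ± 0.05, adjusted p = 0.00731). Ndufb6 rose by a log2 fold change of 0.19 ± 0.06 (adjusted p = 0.0305), with overlapping ranges. The other complex I risers were Ndufa12, Ndufb2 and Ndufb9.
The fall was in Ndufv3, an accessory subunit of the NADH-oxidising module, with 33.8, 34.8, 34.3 and 34.2 CPM with activated platelets and 40.0, 38.3, 38.4 and 41.0 CPM with vehicle. These groups did not overlap, and the log2 fold change was -0.20 ± 0.05 (adjusted p = 0.0108). Core subunits were not called: Ndufs1, which carries iron-sulfur clusters, averaged 73.0 ± 1.77 CPM with activated platelets and 69.1 ± 1.27 CPM with vehicle (SD, n = 4 each, adjusted p = 0.12), and Ndufv1, which binds NADH, 56.2 ± 1.55 and 52.6 ± 3.30 CPM (adjusted p = 0.148). Ndufab1, the mitochondrial acyl carrier protein, had a log2 fold change of 0.05 ± 0.05 (adjusted p = 0.470) and shares reads with its copy Ndufab1-ps, as Ndufb4, Ndufb4b and Ndufb4c share reads with each other, so the values of these genes are uncertain.
Among the 8 Ndufaf assembly factors, 1 was higher and 1 lower, near the 12.2% and 13.6% of all genes. Ndufaf2, a late assembly chaperone, had 6.97, 7.41, 7.58 and 7.51 CPM with activated platelets, against 5.76, 6.404, 5.78 and 6.17 CPM with vehicle (log2 fold change 0.29 ± 0.08, adjusted p = 0.0147), without overlap. Ndufaf7, a methyltransferase that modifies a core subunit, had the largest fall of any member: 6.09, 4.23, 4.20 and 6.00 CPM with activated platelets, against 7.62, 6.86, 6.91 and 8.10 CPM with vehicle. The log2 fold change was -0.52 ± 0.13 (adjusted p = 0.00788), and the activated platelet libraries fell into a lower and a higher pair, both below vehicle.

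Complex II divided between its subunits. Sdhb, the iron-sulfur subunit, had 122.4, 122.3, 122.1 and 119.1 CPM with activated platelets, 99.7, 111.1, 108.7 and 101.7 CPM with resting platelets, 98.8, 106.9, 108.1 and 105.7 CPM with thrombin and 105.2, 110.9, 105.1 and 104.0 CPM with vehicle. All 4 activated platelet libraries lay above the other 12. Relative to vehicle the log2 fold change was 0.19 ± 0.04 (adjusted p = 0.00217). The gene lies on chromosome 4 at 140688582 to 140706509 (GRCm39). By contrast, Sdha, the flavoprotein that oxidises succinate, averaged 216 ± 5.82 CPM with activated platelets and 221 ± 7.87 CPM with vehicle (log2 fold change -0.04 ± 0.04, adjusted p = 0.560). The membrane anchors Sdhc and Sdhd had log2 fold changes of -0.08 ± 0.04 and 0.03 ± 0.04 (adjusted p = 0.235 and 0.671). The blocked fit called both Sdhc and Sdha lower with activated platelets than with thrombin, with log2 fold changes of -0.13 ± 0.04 and -0.08 ± 0.03 (adjusted p = 0.0121 and 0.0299).
Of the 4 complex II assembly factors, 2 rose, against 12.2% of all genes. Sdhaf1, which helps load iron-sulfur clusters into Sdhb, had 7.00, 7.52, 8.12 and 7.99 CPM with activated platelets and 6.12, 6.77, 6.69 and 5.85 CPM with vehicle, without overlap (log2 fold change 0.27 ± 0.08, adjusted p = 0.0170). Sdhaf2, which helps attach flavin to Sdha, had 42.4, 41.5, 40.7 and 43.1 CPM with activated platelets and 36.6, 38.6, 36.5 and 34.3 CPM with vehicle (0.20 ± 0.05, adjusted p = 0.00696). The remaining assembly factors, Sdhaf3 and Sdhaf4, were not called.

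In complex III, 2 of 8 genes were higher, against 12.2% of all genes. Uqcrh, the hinge protein that binds cytochrome c1, had 91.1, 87.6, 91.3 and 80.0 CPM with activated platelets and 76.1, 75.2, 78.7 and 72.3 CPM with vehicle. Every activated platelet value was above every vehicle value (log2 fold change 0.21 ± 0.05, adjusted p = 0.00804). Uqcr10, a small accessory subunit, had 47.1, 43.4, 42.5 and 42.2 CPM with activated platelets, against 41.6, 40.4, 38.8 and 36.6 CPM with vehicle (0.16 ± 0.05, adjusted p = 0.0369). The core protein Uqcrc1 averaged 122 ± 5.41 CPM with activated platelets and 128 ± 5.002 CPM with vehicle (adjusted p = 0.207), and the Rieske iron-sulfur protein Uqcrfs1 66.9 ± 2.31 and 68.2 ± 3.06 CPM (adjusted p = 0.722).

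Complex IV had 3 higher of 15 tested, against 12.2% of all genes, and the highest median log2 fold change of the 5 complexes, 0.11. Cox5a, a subunit of the matrix side, had 98.1, 100.6, 95.4 and 96.0 CPM with activated platelets, 83.1, 88.5, 89.2 and 84.4 CPM with resting platelets, 84.9, 90.8, 85.9 and 91.0 CPM with thrombin and 82.7, 77.3, 82.6 and 83.8 CPM with vehicle. The activated platelet libraries were again above all others. Its log2 fold change against vehicle was 0.26 ± 0.04 (adjusted p = 0.000111), the smallest adjusted p of any member in that comparison. Cox5a spans 57423012 to 57439710 on chromosome 9 (GRCm39).
Cox6b1, which faces the intermembrane space, had 97.3, 96.9, 94.1 and 92.5 CPM with activated platelets and 85.2, 81.4, 84.2 and 86.9 CPM with vehicle (0.17 ± 0.05, adjusted p = 0.0125), without overlap. Cox6b2, its testis isoform, falls outside the level set for named genes and is given because it completes the count of 3: it averaged 0.773 ± 0.144 CPM with activated platelets and 0.318 ± 0.132 CPM with vehicle (log2 fold change 1.25 ± 0.33, adjusted p = 0.0109). Cox4i1, Cox8a, Ndufa4 and Cox7a2l had log2 fold changes of 0.03, 0.06, 0.11 and 0.04 and were not called (adjusted p between 0.128 and 0.680).

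Complex V had 2 higher of 17, near the 12.2% of all genes called higher. Atp5md, a small membrane subunit involved in dimer stability, had 32.8, 34.2, 30.1 and 32.4 CPM with activated platelets and 28.7, 28.4, 24.9 and 27.0 CPM with vehicle, without overlap (log2 fold change 0.25 ± 0.06, adjusted p = 0.00560). Atp5h, of the peripheral stalk, had 84.0, 79.0, 81.5 and 81.4 CPM with activated platelets, against 74.8, 76.9, 76.0 and 74.5 CPM with vehicle (0.11 ± 0.04, adjusted p = 0.0372). The catalytic head subunits were not called: Atp5b averaged 509 ± 25.8 CPM with activated platelets and 509 ± 9.42 CPM with vehicle, and Atp5a1 436 ± 12.0 and 454 ± 8.16 CPM (SD, n = 4 each, adjusted p = 0.985 and 0.290).

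**Figure D2:**
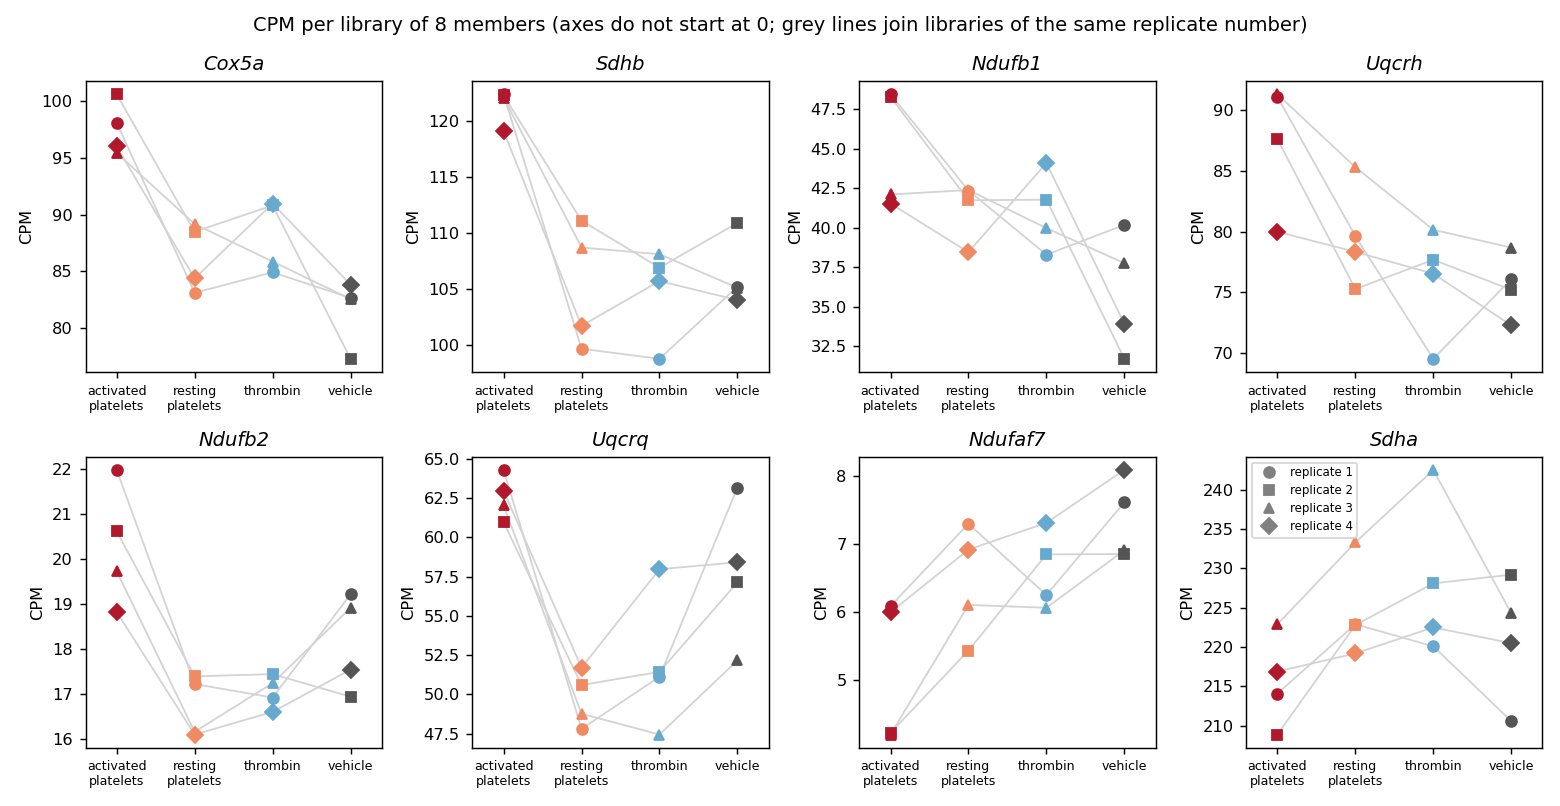
CPM (y axes, not starting at 0) of 8 members in each library of the 4 groups (x axes); marker shapes give the replicate number and grey lines join libraries of the same number. Cox5a and Sdhb with activated platelets lie above all other libraries, Ndufaf7 lies below vehicle, Ndufb2 and Uqcrq dip with resting platelets and with thrombin, and Sdha overlaps in all groups.

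Gene length moved with these results. The 96 tested members had a median combined exon length of 906 bases, against 3410 bases for all tested genes. Across members, Spearman's rho between log2 fold change and length was -0.383 for activated platelets against vehicle, and across all genes it was -0.115. Genes are not independent replicates, and all points share the same libraries. Of the 53 members under 1000 bases, 14 were higher and 0 lower, with a median log2 fold change of 0.11. The 1501 other genes under 1000 bases had a median of 0.06, with 9.73% higher and 3.398% lower. Of the 43 longer members, 4 were higher and 2 lower, with a median of 0.03, and the 14021 longer genes that are not members had a median of -0.01.
A fit with an offset for length left 7 members higher and 4 lower, against 13% and 12.4% of all genes. The 7 were Cox5a (adjusted p = 8.88e-05), Sdhb (0.00329), Sdhaf2 (0.00461), Cox6b2 (0.0131), Ndufb1 (0.0201), Ndufa12 (0.0256) and Ndufaf2 (0.0345), and the 4 lower were Ndufv3 (0.00704), Ndufaf7 (0.00762), Ndufa8 (0.0283) and Atp5g2 (0.0392). Under that offset Uqcrh had an adjusted p of 0.0739 and Ndufa1 of 0.105. Platelet transcripts also moved with the contrast, as given above. The part of either in these differences was not tested, and in bulk RNA a change in cell numbers cannot be told apart from a change in RNA per cell.

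**Figure D3:**
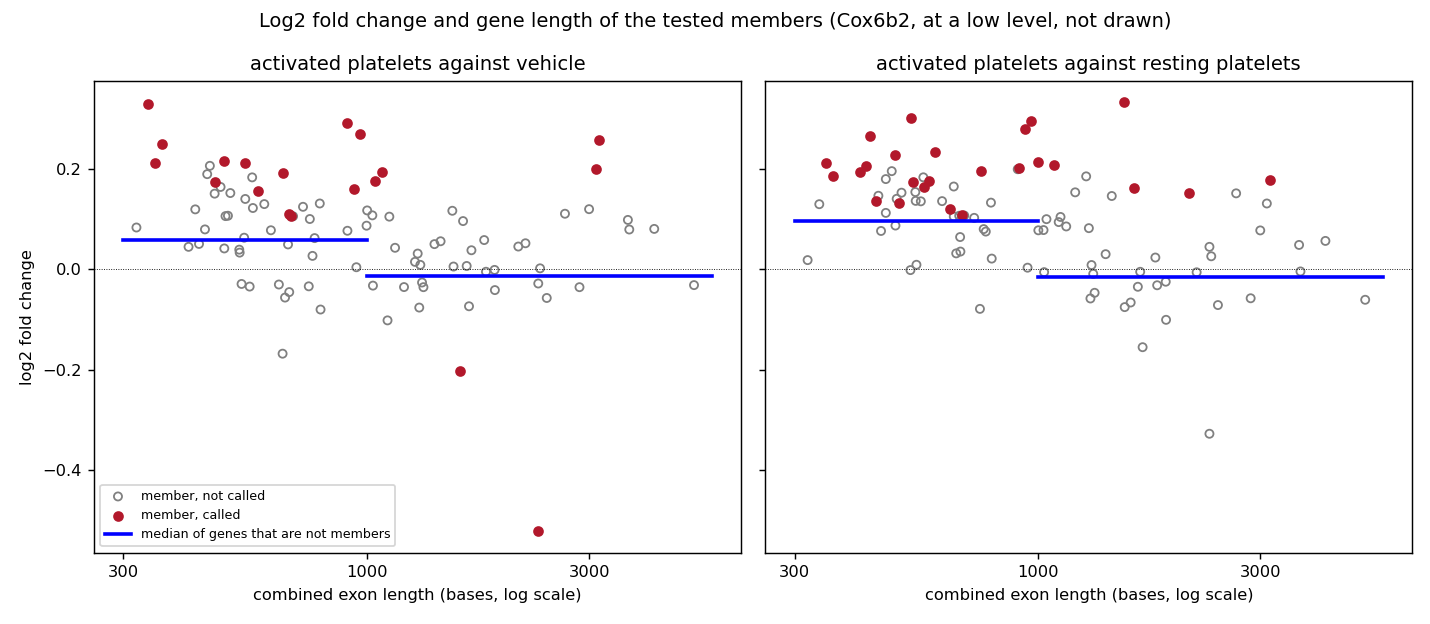
Log2 fold change (y axis) against combined exon length in bases (x axis, log scale) of the tested members except Cox6b2, for activated platelets against vehicle (left) and against resting platelets (right). Filled points passed adjusted p below 0.05, and blue lines are the medians of genes that are not members, under and over 1000 bases. Most filled points lie under 1000 bases; Cox5a and Sdhaf2, at 3153 and 3097 bases, are exceptions on the left.

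In the fit without the block, no member was called higher than vehicle with resting platelets or with thrombin alone. With resting platelets 0 members were higher and 3 lower, against 2.08% and 1.33% of all genes, and the median log2 fold change was -0.01. At an unadjusted p below 0.05, 3 were higher and 15 lower, against 9.76% and 9.43% of all genes, and DESeq2 called 0 higher and 6 lower, against 3.63% and 2.47%. The 3 were Uqcr11, a small complex III subunit, Cox6a1 and Atp5g2, a gene for the rotor ring of ATP synthase.
Uqcr11 had 33.8, 36.8, 36.4 and 34.8 CPM with resting platelets and 42.6, 43.3, 39.5 and 39.2 CPM with vehicle (log2 fold change -0.21 ± 0.06, adjusted p = 0.0454). Cox6a1 had 84.1, 93.4, 89.7 and 94.1 CPM with resting platelets, against 104.7, 108.6, 98.4 and 104.4 CPM with vehicle (-0.20 ± 0.05, adjusted p = 0.0425). Atp5g2 had 58.7, 62.5, 59.3 and 60.5 CPM with resting platelets and 66.2, 69.4, 64.9 and 67.3 CPM with vehicle (-0.15 ± 0.04, adjusted p = 0.0477). In each gene all resting platelet libraries were below all vehicle libraries, but the genes were picked by this same comparison. These calls were fragile: the count of lower members was 6 without vehicle replicate 3, against 1.16% of all genes, and 0 without any 1 of the other 7 libraries, or without any replicate number. With an offset for length 2 were higher and 0 lower, against 2.27% and 1.18% of all genes, and with an offset for GC content 0 and 0, against 1.5% and 0.555%. The blocked fit gave 1 higher, Ndufb1, and 12 lower, against 10.9% and 10.6% of all genes.

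With thrombin alone, 0 members were higher and 0 lower, against 0.0896% and 0.198% of all genes; at an unadjusted p below 0.05, 5 were higher and 10 lower, against 5.51% and 5.89% of all genes, and DESeq2 called 0, against 0.423% and 0.634%. The blocked fit gave 3 higher and 5 lower, against 3.89% and 4.32% of all genes, and the GC offset 0 and 0, against 0.0411% and 0.0343%. The 3 were Uqcrb, Atp5md and Ndufs1, with blocked log2 fold changes of 0.20, 0.15 and 0.13, and the 5 were Ndufa7, Uqcr11, Ndufv3, Uqcrq and Cox6a1, at -0.18, -0.17, -0.16, -0.15 and -0.15. Fold changes of both these comparisons followed GC content. Spearman's rho across the 92 members with a known GC content was -0.472 for resting platelets and -0.396 for thrombin, and across 14592 genes -0.344 and -0.446. These comparisons share the vehicle libraries.

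**Figure D4:**
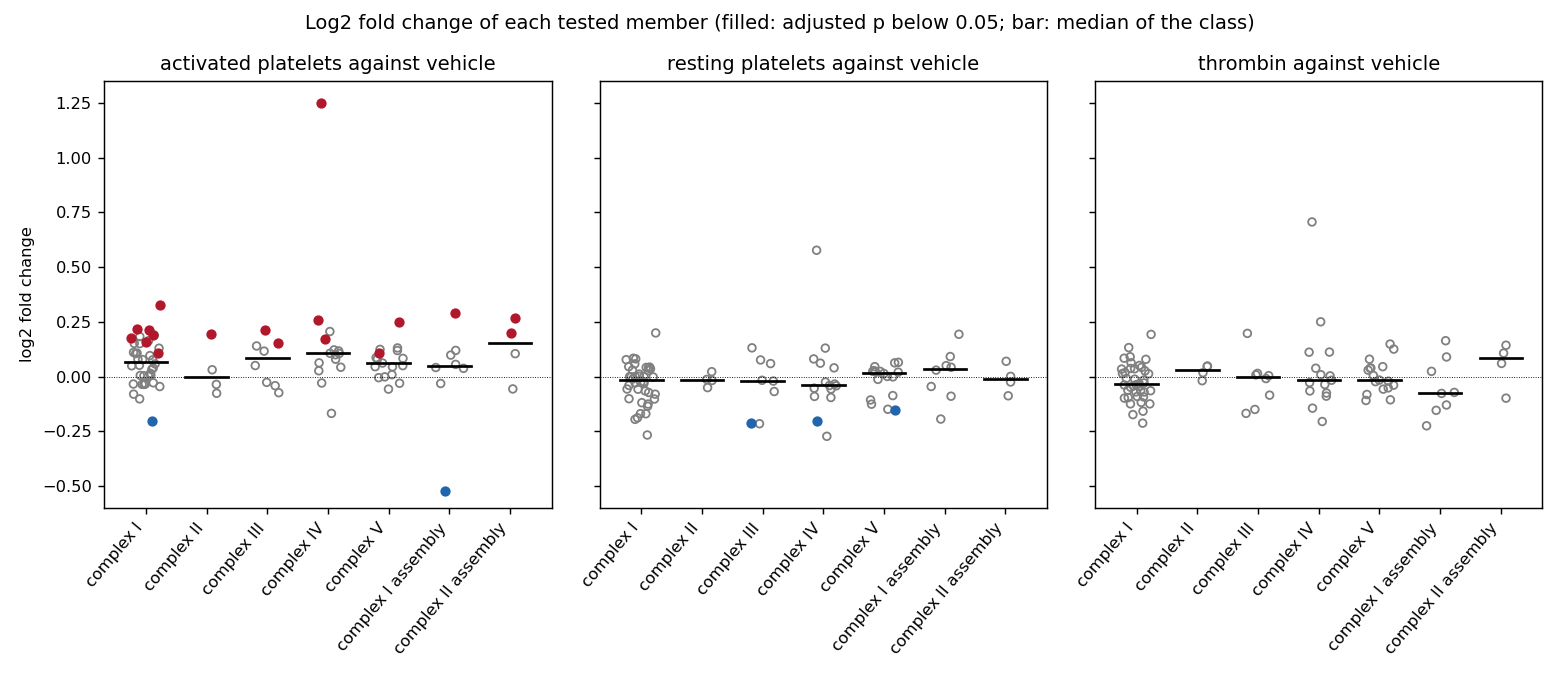
Log2 fold change against vehicle (y axis) of each tested member by class (x axis) with activated platelets, resting platelets and thrombin. Filled points passed adjusted p below 0.05 (red higher, blue lower), and bars are class medians. The 18 rises and 2 falls are in the left panel, resting platelets show 3 falls and thrombin none; the highest point in each panel is Cox6b2.

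Set against resting platelets, activated platelets raised 25 members and lowered 0, against 7.37% and 8.46% of all genes. The median log2 fold change was 0.11. By complex the risers were 8 of 40 in complex I, 1 of 4 in complex II, 3 of 8 in complex III, 6 of 15 in complex IV and 6 of 17 in complex V, plus Sdhaf1. Uqcrq, a small complex III subunit, had 64.3, 61.0, 62.0 and 63.0 CPM with activated platelets, against 47.8, 50.6, 48.8 and 51.7 CPM with resting platelets (log2 fold change 0.33 ± 0.06, adjusted p = 0.00134). Ndufb7, an accessory subunit of complex I on the intermembrane space side, had 42.7, 42.2, 41.2 and 38.2 CPM with activated platelets and 31.8, 31.9, 33.5 and 36.2 CPM with resting platelets (0.30 ± 0.08, adjusted p = 0.0126). Neither pair of groups overlapped, in genes picked as the largest called rises of this comparison.
Sdhaf1 had 6.74, 6.10, 5.96 and 6.17 CPM with resting platelets, below its 4 activated platelet values (0.29 ± 0.08, adjusted p = 0.0165). Ndufb2 had 21.97, 20.6, 19.7 and 18.8 CPM with activated platelets and 17.2, 17.4, 16.2 and 16.1 CPM with resting platelets (0.28 ± 0.06, adjusted p = 0.00321). The rotor ring genes Atp5g1 and Atp5g2 and the central stalk genes Atp5d and Atp5e were among the complex V risers. So was core subunit Ndufv1 in complex I, at 56.2 ± 1.55 CPM with activated platelets and 50.2 ± 2.67 CPM with resting platelets (SD, n = 4 each; 0.16 ± 0.05, adjusted p = 0.0259).
The count depended on a few libraries, and the share of all genes called higher moved with it. It was 10 without activated platelet replicate 1, against 5.65% of all genes, 16 without activated platelet replicate 2, against 6.32%, and 13 without resting platelet replicate 1, against 5.04%. Without all of replicate 1, 4 members were higher, against 3.14% of all genes: Ndufb2, Sdhaf1, Sdhb and Uqcrq, while 30 were higher at an unadjusted p below 0.05, against 10.5% of all genes. Dropping replicate number 2 or 3 throughout gave 11 and 10, against 6.04% and 4% of all genes. The blocked fit gave 38 higher and 3 lower, against 16% and 18.5% of all genes, and the 3 were Ndufaf7, Uqcrc2 and Atp5a1, at blocked log2 fold changes of -0.33, -0.10 and -0.07. With the length offset 5 were higher and 1 lower, against 6.73% and 6.85% of all genes, and with the GC offset 21 and 0, against 7.04% and 8.22%; rho with length was -0.498 across members and -0.235 across all genes.

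Set against thrombin alone, activated platelets raised 24 members and lowered 0, against 11.9% and 13.5% of all genes, with a median log2 fold change of 0.10. Ndufa1 led with 26.7, 27.1, 28.7 and 28.4 CPM in thrombin libraries, all below its activated platelet values (log2 fold change 0.31 ± 0.05, adjusted p = 0.000524). Uqcrq had 51.1, 51.4, 47.4 and 58.0 CPM with thrombin (0.27 ± 0.06, adjusted p = 0.00357), and Ndufa2, an accessory subunit of complex I, 54.3, 50.3, 48.9 and 47.0 CPM with activated platelets against 37.9, 44.6, 40.9 and 44.7 CPM with thrombin (0.25 ± 0.06, adjusted p = 0.00544). Ndufb2 had 16.9, 17.4, 17.2 and 16.6 CPM with thrombin (0.25 ± 0.06, adjusted p = 0.00369). None of these 4 genes had overlapping groups in this comparison, but they were picked as its largest called rises, so this is no separate support.
Without replicate 1, Ndufa1, Ndufb2, Sdhb and Uqcrq remained, 4 members against 7.60% of all genes, with 20 higher at an unadjusted p below 0.05, against 14.3%. The count was 13 without activated platelet replicate 1, against 10.2% of all genes, 14 without activated platelet replicate 2, against 10.7%, 12 without thrombin replicate 1, against 9.66%, and 10 without all of replicate number 3, against 7.9%. The blocked fit gave 36 higher and 4 lower, against 19.6% and 22% of all genes, and the length offset 9 higher and 5 lower, against 12.6% and 12.1%. Higher in all 3 comparisons that contain the activated platelet libraries were Cox5a, Ndufa1, Ndufa3, Ndufb2, Sdhb and Uqcr10, although these comparisons share those libraries. Of the 96 tested members, 59 were called in none of the 5 comparisons of 2 groups. The same counts were not made over all genes, so neither this number nor the list of 6 can be set against a background share.

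The interaction asks whether thrombin acted differently with platelets than without: the log2 difference between activated and resting platelets, minus that between thrombin and vehicle. In 18 members it was above 0 and in 0 below, against 4.57% and 5.33% of all genes, and the median over members was 0.10. The largest was in Ndufb7, at 0.51 ± 0.11 (adjusted p = 0.00647), followed by Uqcrq at 0.48 ± 0.08 (0.00226), Uqcr11 at 0.43 ± 0.08 (0.00265) and Ndufb2 at 0.37 ± 0.08 (0.00866). The value was above 0 in each of the 4 replicate numbers for these genes, which were picked for their large values, so this is no separate support.
For Ndufb7 the vehicle libraries, at 43.5, 41.8, 35.6 and 39.8 CPM, overlapped those with activated platelets (log2 fold change 0.03 ± 0.07, adjusted p = 0.794), and the thrombin libraries had 29.8, 34.4, 37.7 and 36.8 CPM. Uqcrq likewise averaged 62.6 ± 1.41 CPM with activated platelets, 49.7 ± 1.76 CPM with resting platelets, 52.0 ± 4.38 CPM with thrombin and 57.7 ± 4.52 CPM with vehicle (SD, n = 4 each). Uqcr11 averaged 42.6 ± 2.20, 35.5 ± 1.39, 36.6 ± 2.53 and 41.2 ± 2.11 CPM in that order. In Ndufb7 and Uqcr11 the means with activated platelets and with vehicle lay close together, and those with resting platelets or thrombin were lower. For Uqcrq the blocked fit called activated platelets higher than vehicle (log2 fold change 0.12 ± 0.05, adjusted p = 0.0405) and both resting platelets and thrombin lower than vehicle (-0.21 ± 0.05 and -0.15 ± 0.05, adjusted p = 0.00211 and 0.0479). For Sdhb the resting platelet, thrombin and vehicle means were 105.3, 104.9 and 106.3 CPM, and the interaction was 0.23 ± 0.06 (adjusted p = 0.0205). Cox5a had an interaction of 0.07 ± 0.05 (adjusted p = 0.499).
The count depended on replicate 1. Without it, 0 members passed (edgeR), while 17 were above and 4 below 0 at an unadjusted p below 0.05, against 8.02% and 7.22% of all genes, and 0.859% of all genes were called above 0. Counts without replicate numbers 2, 3 and 4 were 11, 8 and 11, against 3.19%, 2.29% and 2.98% of all genes. The blocked fit gave 23 above and 2 below 0, against 13.1% and 15.9% of all genes. A length offset gave 7 above and 2 below, against 4.26% and 4.29%, and a GC offset 9 above and 0 below, against 2.34% and 3.41%; rho of the interaction with GC content was 0.457 across members and 0.383 across all genes.

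**Figure D5:**
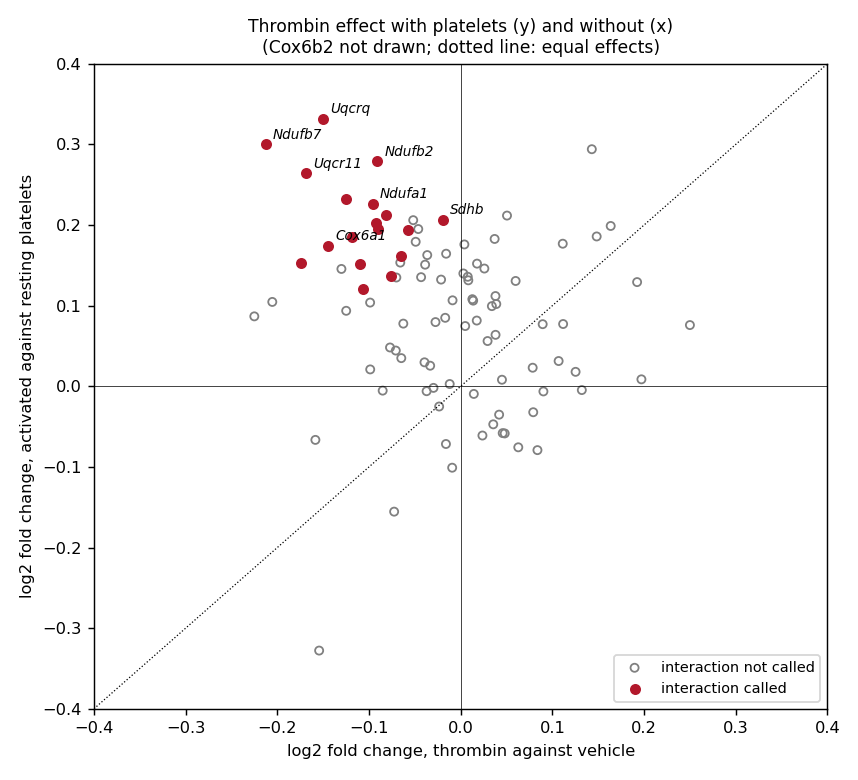
Log2 fold change of activated against resting platelets (y axis) and of thrombin against vehicle (x axis) for each tested member except Cox6b2; the dotted line marks equal effects and filled points have a called interaction. The 18 filled points lie above the line, with Ndufb7, Uqcrq and Uqcr11 high on the y axis and negative on the x axis.

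The motif matches were also counted by response. Of the 17 members higher with activated platelets than with vehicle that have a promoter sequence, 8 held the ETS core, 1 the NRF1 motif, 0 the YY1 motif and 1 the ERR motif. Among the 63 other tested members with a promoter the counts were 14, 20, 8 and 7 in the same order. The 8 were Uqcrh and Cox6b1, printed above, with Sdhb, Sdhaf1, Sdhaf2, Ndufb6, Atp5md and Atp5h, and Atp5h also held the NRF1 motif. These are descriptions with no test.

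Lists of genes around the chain were read against the 12.2% higher and 13.6% lower of all genes with activated platelets against vehicle, or 20% and 22.5% in the blocked fit. Cytochrome c (Cycs), the carrier between complexes III and IV, averaged 39.0 ± 3.89 CPM with activated platelets and 29.8 ± 2.59 CPM with vehicle (SD, n = 4 each; log2 fold change 0.39 ± 0.08, adjusted p = 0.00232), while Cyc1 was not called. Of 6 complex III assembly factors, Ttc19 rose by 0.58 ± 0.09 (adjusted p = 0.000224) and Uqcc3 fell by 0.32 ± 0.08 (0.00899) on the log2 scale. Of 27 complex IV assembly factors, the copper chaperone Cox17 rose by 0.20 ± 0.06 (0.0172) and Coa8 fell by 0.23 ± 0.05 (0.00605). Among 11 complex I assembly factors outside the Ndufaf group only Lyrm2 rose (0.19 ± 0.06, adjusted p = 0.0382), and 0 of 5 complex V factors changed. The blocked fit called 3 higher and 2 lower of the complex III factors, 4 and 2 of the complex IV factors, 1 and 1 of the complex I factors and 0 and 1 of the complex V factors.
The mitochondrial ribosome, which makes the subunits encoded in the mitochondrion, had 11 higher (14.1%, near the share of all genes) and 3 lower of 78, or 18 and 4 in the blocked fit, among them Mrpl33 (0.31 ± 0.05, adjusted p = 0.000324) and Mrpl52 (0.28 ± 0.06, adjusted p = 0.00213), and Mrpl4 and Mrps26 were among the lower. Its median log2 fold change was 0.06. Of 13 coenzyme Q genes, Coq10b rose by 0.64 ± 0.08 (adjusted p = 2.4e-05) and Coq3 by 0.22 ± 0.07 (0.0325), and Coq10a fell by 0.49 ± 0.11 (0.00275).
In the citric acid cycle 3 of 17 genes were higher, with Ogdh at 182 ± 5.31 CPM with activated platelets and 148 ± 5.63 CPM with vehicle (0.30 ± 0.04, adjusted p = 1.75e-05) and Idh3a at 0.33 ± 0.09 (0.0136), and 2 were lower, Idh2 and Suclg2; the blocked fit gave 5 and 2. Among 14 tested regulators of mitochondrial gene expression, Pprc1 and Tfb2m rose by 0.17 ± 0.05 and 0.18 ± 0.06 (adjusted p = 0.0142 and 0.0404), and the blocked fit called 3 regulators higher and 1 lower. Ppargc1b, a coactivator of respiratory chain genes, fell by 0.63 ± 0.13 (adjusted p = 0.00160). Of 15 glycolysis enzymes 1 was higher and 4 lower (26.7%), and the blocked fit called 3 higher and 8 lower (53.3%): Hk2, the inducible hexokinase, rose by 0.63 ± 0.08 (adjusted p = 2.76e-05), and Pfkm and Tpi1 fell by 0.55 ± 0.09 and 0.21 ± 0.04 (0.000166 and 0.00125).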

How the data were processed

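RNA-seq was made from 16 libraries of mouse macrophages in 4 groups of 4 with a stranded mRNA kit, per the labels' protocols. The authors deposited 1 table of estimated counts per gene, not scaled; 25.5% of its values above 0 are not whole, and counts were rounded to whole numbers. The submitters' processing notes name cutadapt 2.5, STAR 2.7.2b and featureCounts 1.6.4 with builds GRCm39 and mm10, in no stated order. How reads with several matches and strand were handled is not given in the sources used here; 29 tested members have fractional counts in 8 or more libraries.

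Genes were filtered with filterByExpr, scaled by TMM and tested with edgeR 4.0.16 (robust quasi-likelihood test, R 4.3.3) over all 4 groups, with Benjamini-Hochberg adjustment over all 15618 genes and a threshold of 0.05. The scripts were tested on simulated data. Fold changes are log2 values with standard errors.

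Alternatives were other scalings, DESeq2 1.42.0, limma-voom (limma 3.58.1), no filter, only the groups compared, offsets for length or GC content (98 of 102 members have a GC value), the replicate number as a block, and leaving out libraries. Deviations from group means correlated between libraries of the same number (r from 0.292 to 0.617 over 24 pairs). They correlated less between different numbers (-0.437 to 0.255 over 72 pairs). The labels do not say what the numbers mark. On these correlations alone, libraries sharing a number were treated as matched in the blocked fits and where libraries are compared by number. The main test left the replicate number out, so its counts and p-values do not come from a paired fit.

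Genes are named with values where they are among the 4 largest called rises or falls of a class with activated platelets against vehicle, or of any other comparison, reaching 5 CPM in 1 of the groups compared, or belong to a set of defining subunits and isoforms. Whether groups overlap in a named gene is a description of genes picked by the same values and not a further test. Its share over all genes was not counted. The members and lists were chosen with earlier results of these data known.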

Additional observations from a re-analysis of the deposited data

Results flagged for a closer look

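The interaction of platelets and thrombin, a test of the difference between the effects of thrombin with and without platelets, marked 18 members as a count. Among the named genes its log2 value was 0.51 for Ndufb7, 0.48 for Uqcrq, 0.43 for Uqcr11, 0.37 for Ndufb2, 0.36 for Ndufa2, 0.32 for Ndufa1, 0.32 for Cox6a1, 0.23 for Ndufv1, 0.23 for Atp5g2 and 0.23 for Sdhb. Without the libraries of replicate number 1, 0 members passed.

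In 12 of 188 groups of 4 libraries checked, 1 library lay far from the other 3, and chance alone marks about 1 in 20 groups. Thrombin replicate 1 was low in the sum over all members (5684 CPM) and in the sum over complex I (1479 CPM), and activated platelet replicate 4 was high in the sum over complex I assembly factors (60.3 CPM). Activated platelet replicate 4 was low for Sdhb (119.1 CPM) and for Cox8a (110.4 CPM). Among resting platelet libraries, replicate 4 was low for Cox6b1 (83.7 CPM) and Ndufb1 (38.5 CPM), replicate 2 was high for Ndufa1 (31.1 CPM), and replicate 1 stood apart for Sdhc (79.1 CPM). Among vehicle libraries, replicate 2 was high for Sdhb (110.9 CPM) and low for Atp5a1 (441.8 CPM), and replicate 1 stood apart for Sdhc (87.4 CPM).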

How the results depend on the processing

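Of the values answering a comparison, 120 stayed within 1.5 times the reported count, or within the spread for sums, and 42 moved, apart from those that leave out libraries; none reversed. For single genes, 1382 values kept their call, 48 gained one and 51 lost one. The causes were not tested.

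For activated platelets against vehicle, 18 higher members became 7 with a length offset and 32 with the replicate block and GC offset, and 2 lower became 4 with a length offset and 9 with the replicate block and length offset. For resting platelets, 0 higher became 1 with the replicate block, 2 with a length offset, 1 with the replicate block and GC offset and 4 with the replicate block and length offset; 3 lower became 6 with DESeq2, 1 with limma-voom, 0 with no filter, 0 with only the groups compared, 12 with the replicate block, 0 with a length offset, 0 with a GC offset, 5 with the replicate block and GC offset and 9 with the replicate block and length offset. For thrombin, 0 higher became 3 with the replicate block and 4 with the block and length offset, and 0 lower became 5 and 4.

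For activated against resting platelets, 25 higher became 38 with the replicate block, 5 with a length offset and 12 with both, and 0 lower became 3, 1 and 6, and 2 with the block and GC offset. For activated platelets against thrombin, 24 higher became 9 with a length offset, and 0 lower became 2 with DESeq2, 1 with limma-voom, 4 with the replicate block, 5 with a length offset, 1 with a GC offset, 2 with the block and GC offset and 8 with the block and length offset. For the interaction, 18 above 0 became 7 with a length offset and 9 with a GC offset, and 0 below 0 became 2 with the replicate block, 2 with a length offset, 1 with the block and GC offset and 9 with the block and length offset. The replicate block moved no other count of respiratory chain genes by over 1.5 times; its counts for the related lists are given with them above. With the replicate block and GC offset, the shares of all genes called higher and lower were 22.4% and 23.3% for activated platelets against vehicle, 10.6% and 7.18% for resting platelets, 15.9% and 19.5% for activated against resting platelets, 21.7% and 22.9% for activated platelets against thrombin and 9.42% and 14.4% for the interaction. With the replicate block and length offset, they were 21.4% and 21.6%, 11.7% and 10%, 15.4% and 16.8%, 20.5% and 20.7% and 12.7% and 14.3% in the same order, and 4.06% and 4.51% for thrombin.

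Leaving out 1 library or 1 replicate number gave 9 to 20 higher and 1 to 2 lower members for activated platelets against vehicle. It gave 0 higher and 0 to 6 lower for resting platelets, and 0 and 0 for thrombin. For activated against resting platelets it gave 4 to 28 higher and 0 lower, and against thrombin 4 to 27 and 0 to 1. For the interaction 0 to 19 were called above and 0 below 0. The shares of all genes moved too. Without replicate 1 they were 8.13% higher and 8.08% lower for activated platelets against vehicle, 0.308% and 0.0706% for resting platelets and 0.00641% and 0.0192% for thrombin. They were 3.14% and 3.08% for activated against resting platelets, 7.60% and 7.96% against thrombin, and 0.859% and 0.834% for the interaction. The 1 lower member against thrombin appeared without activated platelet replicate 1, 2 or 4 or thrombin replicate 3. The block with the length offset, and the counts of all genes without replicate 1, were chosen after seeing the data.

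At 22556082 to 30603736 counts, depth limits Cox6b2, Cox7a1 and the 6 untested members.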
